A study of Mus musculus with 6 samples.

Results

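A group of genes of plasminogen activation and of the tissue factor pathway was examined in RNA-seq of primary mouse cardiomyocytes. The group holds 9 genes that were chosen by symbol, and all 9 were found among the 54532 genes of the table and were expressed above the level needed for testing. Hearts of neonates 1 to 3 days old were digested, cells that attached quickly to plastic were left behind, and the rest were plated at about 1 heart per well. The mice carried an engineered Rit1 locus that yields RIT1 with the M90I change once Cre recombinase has acted, RIT1 being a small GTPase of the RAS family. Cultures received on day 3 an adenovirus encoding GFP (AdGFP, control, genotype labelled Rit1 +/+) or GFP and Cre (AdCre, genotype labelled Rit1 M90I/+), with 3 samples of each, numbered 1 to 3. RNA was taken on day 6 after infection. No group received Cre without the engineered allele, and effects of M90I and of the recombinase cannot be told apart.

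Plasminogen is a circulating zymogen that is cut to plasmin, the protease that dissolves fibrin and also cleaves extracellular matrix. Urokinase (Plau) and tissue plasminogen activator (Plat) make this cut. Urokinase does so mostly when bound to its receptor (Plaur), and annexin A2 (Anxa2), with its partner S100a10, forms a docking site for plasminogen and Plat on the cell surface. Both activators are blocked by inhibitors of the serpin family, among them protease nexin 1 (Serpine2) and PAI-2 (Serpinb2). Tissue factor (F3) is the membrane protein that starts coagulation by binding factor VII, and TFPI (Tfpi) shuts that step off. TFPI-2 (Tfpi2) is a related Kunitz-type inhibitor that acts more on plasmin and trypsin-like proteases than on tissue factor. Several of these genes, Plau and Plaur among the best known, respond to ERK signaling in many cell types.

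Levels are given in FPKM (fragments relative to exon length and depth, with scaling by the authors), a scale on which genes can be compared with each other. Fold changes are on the scale of log2(FPKM + 0.1). The test was limma on 13794 genes whose mean reached 0.5 FPKM or more, and p-values carry the Benjamini-Hochberg adjustment. A gene passed, or was called, at an adjusted p under 0.05. The replicate numbers paired the samples by their values, so the fit with the replicate number as a block is given beside the fit without it. Depth, worked back from FPKM, was between 25.28 and 32.43 M reads per sample, and the 9 genes had between 76 and 31628 reads in a sample. Rit1 itself averaged 8.55 FPKM (SD 0.774, n = 3) in the AdGFP samples against 9.19 FPKM (SD 0.351, n = 3) in the AdCre samples, with a limma adjusted p of 0.84.

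Urokinase, its receptor, protease nexin 1 and TFPI-2 were called higher in AdCre in the fit with the replicate block, by between 1.44-fold and 1.81-fold. Each of these 4 calls was lost in some of the other blocked fits. The pairing behind the block was taken from the values, not from the labels. Tissue factor and TFPI did not pass in either direction. In bulk RNA, fewer cells of a type and less RNA per cell cannot be told apart. Without the block, 0 of the 9 genes passed in limma, where 0.00725% of all genes tested did. At an unadjusted p under 0.05 there were 2 of the 9, both higher, against 10.2% of all genes (4.71% higher), and voom on recovered reads also called 0. With the block, 4 of the 9 passed as higher and 0 as lower, against 2.64% of all genes called higher and 3.51% called lower. At an unadjusted p under 0.05 in that fit there were 6 of the 9, against 24.7% of all genes. Every sample of AdCre lay above every sample of AdGFP for 2 of the 9 (7.36% of all genes), and the reverse held for 0 (8.02%). In all 3 pairs, 6 of the 9 were higher in AdCre (23.9% of all genes) and 0 were lower (24.5%). Over all genes, 48.4% went the same way in all 3 pairs. The median log2 fold change of the 9 was 0.32, against -0.002 over all genes tested. The plot of levels by sample shows both kinds of variation, the step from AdGFP to AdCre and the distance between replicate numbers.

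**Figure D1:**
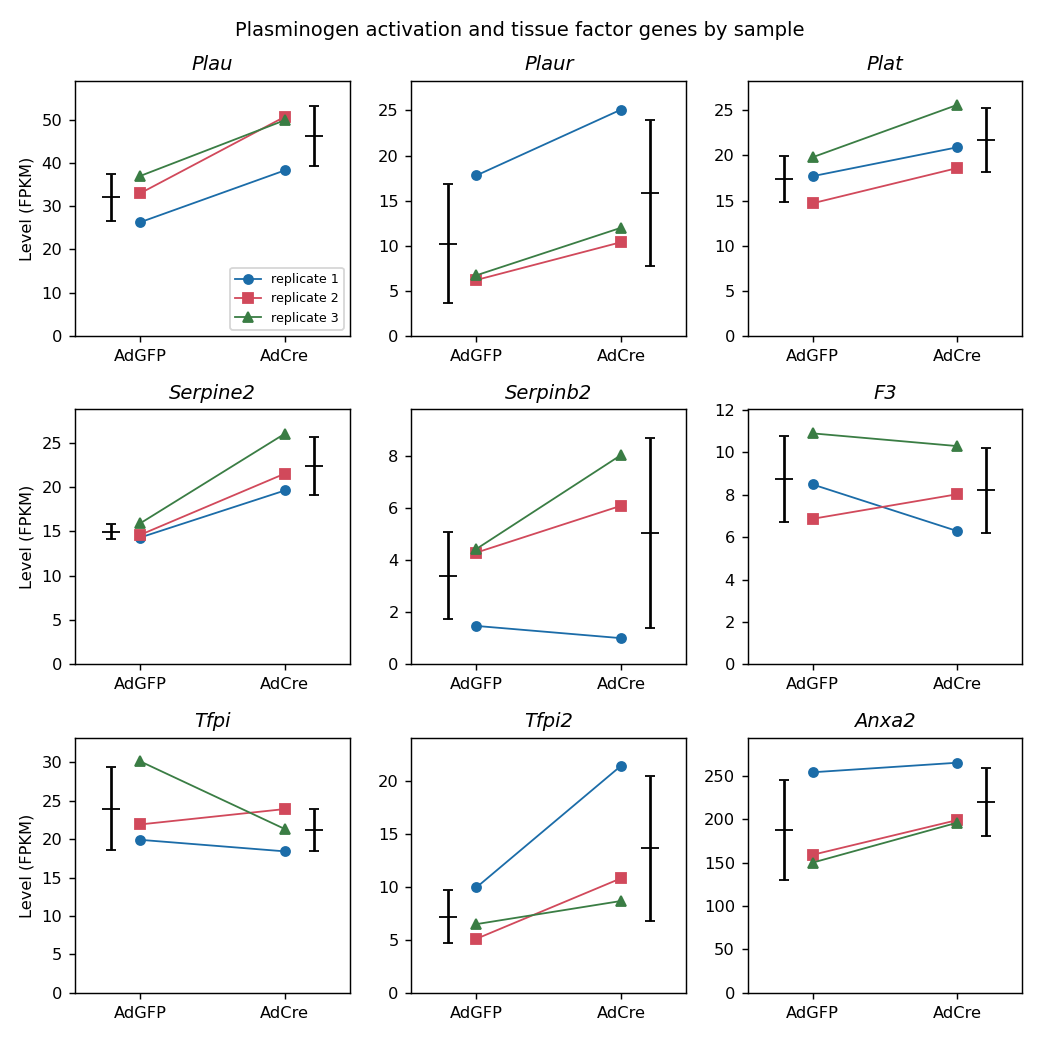
Level in FPKM (vertical axis, from 0) of each of the 9 genes in AdGFP and AdCre, with lines joining samples of the same replicate number and black bars giving the mean ± SD of each group (n = 3). Lines rise in all 3 pairs for Plau, Plaur, Plat, Serpine2, Tfpi2 and Anxa2, and replicate 1 stands apart in both groups for Plaur, Serpinb2, Tfpi2 and Anxa2.

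Plau (ENSMUSG00000021822, chromosome 14, 20836660 to 20843385, GRCm38, GENCODE M21) was the more abundant activator. It was at 26.3, 33.0 and 37.0 FPKM in AdGFP replicates 1 to 3 and at 38.3, 50.7 and 49.9 FPKM in AdCre. The groups did not overlap, and AdCre 1, the lowest AdCre sample, was still above AdGFP 3. On the log2 scale the difference was 0.53 (standard error 0.18, limma adjusted p 0.381; exact two-sided permutation p 0.1, the smallest that 3 samples against 3 can give). The pair differences were 0.54, 0.62 and 0.43, and with the block Plau passed (standard error 0.08, limma adjusted p 0.0269).

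Plaur (ENSMUSG00000046223, chromosome 7, 24462484 to 24475968) encodes the lipid-anchored receptor that holds urokinase at the cell surface. Its level was 17.8, 6.21 and 6.73 FPKM in AdGFP replicates 1 to 3 and 25.1, 10.4 and 12 FPKM in AdCre. AdGFP 1 was thus above AdCre 2 and AdCre 3, and the groups overlapped, although each AdCre sample was above the AdGFP sample of its own number. The log2 difference of 0.68 had a standard error of 0.48 without the block (adjusted p 0.712) and of 0.10 with it (limma adjusted p 0.026), the pair differences being 0.49, 0.73 and 0.83. Of the variance of its log2 values, 76.0% lay between replicate numbers and 23.1% between groups, against medians of 59.2% and 16% over all genes tested. Without AdGFP replicate 1 the unblocked log2 fold change was 1.17, and without AdCre replicate 1 it was 0.29.

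Plat (ENSMUSG00000031538, chromosome 8, 22757727 to 22782844), the activator better known for dissolving clots within vessels, was at 17.7, 14.7 and 19.8 FPKM in AdGFP and at 20.9, 18.6 and 25.6 FPKM in AdCre. Each AdCre sample was above its AdGFP partner, while AdGFP 3 was above AdCre 2. The log2 difference was 0.32 (standard error 0.17), and Plat was not called without the block (adjusted p 0.601) or with it (limma adjusted p 0.0694, 95% interval 0.13 to 0.50). It did pass with the block in 3 of the 9 other blocked fits, among them those with values rescaled to TPM (adjusted p 0.0401) or with the authors' scaling factors taken out (0.0467). The unblocked value was 0.19 without AdCre replicate 3 and 0.20 without AdGFP replicate 2.

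Anxa2 (ENSMUSG00000032231, chromosome 9, 69453620 to 69491795) was the most abundant of the 9, above 98.7% of all genes tested. It was at 254, 159 and 150 FPKM in AdGFP and at 265, 199 and 196 FPKM in AdCre, with both samples numbered 1 above all others. The log2 fold change was 0.26 (limma adjusted p 0.805, and 0.164 with the block, 95% interval 0.03 to 0.48 there). Its pair differences were 0.06, 0.32 and 0.39. The unblocked value was 0.11 without AdGFP replicate 3 or AdCre replicate 1, 0.16 without AdGFP replicate 2 and 0.49 without AdGFP replicate 1. Of its exon bases, 2.63% are shared with Gm16144 on the opposite strand. S100a10, the other subunit of the annexin A2 complex, averaged 230 FPKM (SD 103, n = 3) in AdGFP samples and 252 FPKM (SD 62.8, n = 3) in AdCre samples (log2 fold change 0.19, limma adjusted p 0.91, and 0.36 with the block).

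Among the inhibitors of plasminogen activators, Serpine2 (ENSMUSG00000026249, chromosome 1, 79794197 to 79861180) encodes a secreted serpin that inhibits thrombin, urokinase and plasmin. It was at 14.3, 14.6 and 15.9 FPKM in AdGFP and at 19.6, 21.5 and 26.0 FPKM in AdCre. The groups did not overlap, and the 3 AdGFP samples lay close together (SD 0.872). The mean log2 difference was 0.57 (standard error 0.14), and the unadjusted p of 0.00441 was the smallest of the 9 genes (limma adjusted p 0.281). With the block it passed (adjusted p 0.0271), with pair differences of 0.45, 0.55 and 0.70. Between groups lay 82.8% of its variance.

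Serpinb2 (ENSMUSG00000062345, chromosome 1, 107511423 to 107535478) encodes PAI-2, a serpin that is largely kept inside the cell and is typical of activated macrophages. It had the lowest level of the 9, at 1.48, 4.3 and 4.44 FPKM in AdGFP and 1.01, 6.1 and 8.05 FPKM in AdCre. Both samples numbered 1 were low, at 86 and 76 reads, and the pair differences were -0.51, 0.50 and 0.84. Its log2 fold change was 0.28 (standard error 0.79; limma adjusted p 0.957, and 0.56 with the block, 95% interval -0.36 to 0.91). It passed in 1 of the 10 blocked fits, the one without pair 1 (0.67, limma adjusted p 0.0392), and was 1.17 without AdCre replicate 1 in the unblocked fit. Between replicate numbers lay 90.6% of its variance. Macrophage markers were also low in both samples numbered 1, with a summed level of 53.3 and 93.6 FPKM there and between 220 and 363 FPKM in the other 4. Their part in the level of Serpinb2 was not tested. Serpinb10, a neighbor on the same strand, shares 12.39% of the exon bases of Serpinb2 and holds 10.36% of its 50-base transcript words, and the level of Serpinb2 is uncertain for that reason.

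F3 (ENSMUSG00000028128, chromosome 3, 121723537 to 121735048) did not move in one direction. Its level was 8.49, 6.87 and 10.9 FPKM in AdGFP and 6.29, 8.03 and 10.3 FPKM in AdCre, so that the highest and the lowest of the 6 values belonged to different groups but the ranges overlapped widely. The pair differences were -0.43, 0.22 and -0.09. The log2 fold change was -0.10 with a 95% interval from -0.65 to 0.45 (limma adjusted p 0.944), and from -0.43 to 0.24 with the block (0.704).

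Tfpi (ENSMUSG00000027082, chromosome 2, 84432855 to 84476775) was at 19.9, 21.9 and 30.1 FPKM in AdGFP and at 18.4, 23.9 and 21.3 FPKM in AdCre. AdGFP 3 was the highest sample and the other 5 lay between 18.4 and 23.9 FPKM. Its log2 fold change was -0.16 with a 95% interval from -0.60 to 0.28 (limma adjusted p 0.847), and from -0.48 to 0.15 with the block (0.487). Without AdGFP replicate 3 it was 0.01.

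Tfpi2 (ENSMUSG00000029664, chromosome 6, 3962595 to 3988919) encodes a secreted Kunitz-type inhibitor of plasmin. It was at 9.94, 5.1 and 6.48 FPKM in AdGFP and at 21.4, 10.8 and 8.66 FPKM in AdCre. The ranges overlapped because AdGFP 1 was above AdCre 3, and each AdCre sample was above its AdGFP partner. Its log2 difference was 0.86 (standard error 0.38, limma adjusted p 0.509). With the block the standard error was 0.15 and Tfpi2 passed (adjusted p 0.0372). The pair differences were 1.10, 1.06 and 0.41. The unblocked value was 0.48 without AdCre replicate 1 and 1.13 without AdCre replicate 3.

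**Figure D2:**
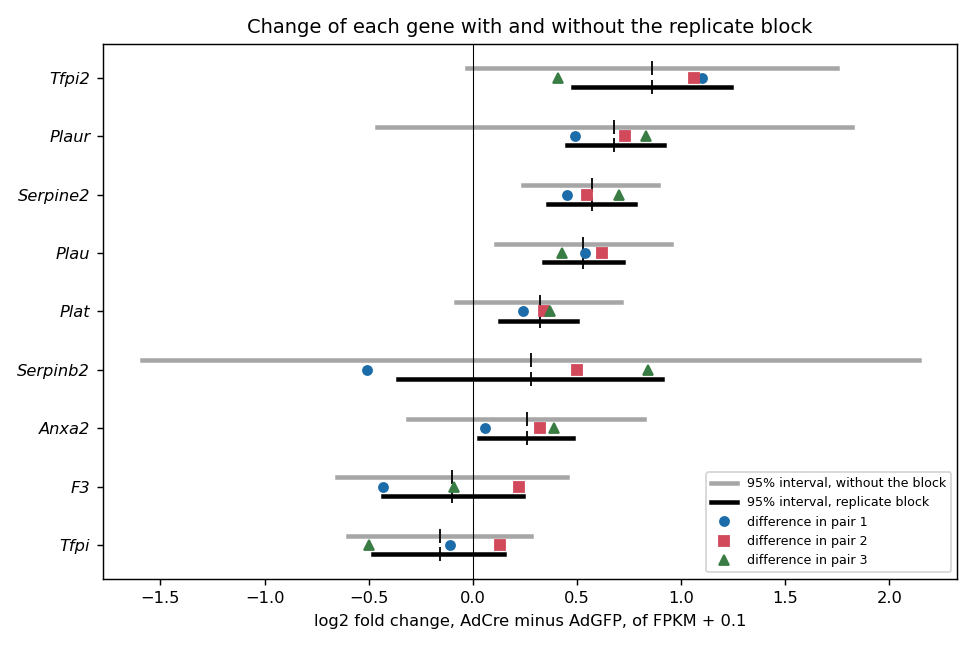
Log2 fold change (horizontal axis, AdCre minus AdGFP, of FPKM + 0.1) of each gene, with ticks for the estimate, gray lines for the 95% interval without the replicate block, black lines for the interval with it, and symbols for the 3 pair differences. The black intervals of Plau, Plaur, Plat, Serpine2, Tfpi2 and Anxa2 lie above 0, and those of Plaur and Serpinb2 are shortened most against the gray ones.

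Promoter windows were searched because ERK signaling acts on transcription largely through AP-1 and ETS factors. RefSeq (GRCm38.p6) gave windows for 7 of the 9 genes, with none for Plau or Plat. Each ran from 250 bases before to 50 bases after a transcript start, the farthest upstream one where there were several. AP-1 letters (TGACTCA or TGAGTCA) were found in 3 of the 7, namely Plaur, Anxa2 and F3, and in 5.2% of all 32851 windows. ETS letters (CGGAAG or AGGAAG, either strand) were found in Plaur, Serpine2, Tfpi and Tfpi2, and in 46.5% of all windows. Those of Tfpi and Tfpi2 lie past the start. SP1 letters (GGGCGG, either strand) were in 5 of the 7 (35.7% of all windows). TATA box letters (TATAAA, either strand) were in 4 (13.6%). They began 17 bases before the start in Anxa2, 29 in Serpinb2 and 127 in Tfpi, and past the start in F3. An E-box (CACGTG) was in Tfpi alone (7.15%) and also lies past the start. The 250 bases before the start are shown for Plaur, which rose under the block, and for F3, which did not pass, because both hold AP-1 letters. Capitals mark AP-1, ETS and SP1 letters on either strand. In Plaur the AP-1 letters begin 69 bases and the ETS letters 130 bases before the start, and in F3 the AP-1 letters begin 135 bases before it. An exon of Gm43823 overlaps the F3 window, and exons of the gene itself overlap the windows of Serpine2, Tfpi and Anxa2. The Serpine2 window lies wholly within the annotated gene. Of the 3 runs of SP1 letters in Plaur, the last begins within the one before it.
Plaur, chr7:24462233-24462482, plus strand: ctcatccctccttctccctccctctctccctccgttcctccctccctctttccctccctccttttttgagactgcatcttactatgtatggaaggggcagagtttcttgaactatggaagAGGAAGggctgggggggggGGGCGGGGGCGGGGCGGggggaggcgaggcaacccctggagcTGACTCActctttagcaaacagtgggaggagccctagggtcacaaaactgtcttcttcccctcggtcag
F3, chr3:121723287-121723536, plus strand: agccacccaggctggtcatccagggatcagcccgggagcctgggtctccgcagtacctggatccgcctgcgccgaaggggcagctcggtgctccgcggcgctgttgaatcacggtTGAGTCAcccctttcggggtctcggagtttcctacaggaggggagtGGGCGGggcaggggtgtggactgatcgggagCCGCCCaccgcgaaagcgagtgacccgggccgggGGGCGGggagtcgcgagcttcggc
A match of letters is a description of the window, and whether any of these is bound in these cells was not measured.

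**Figure D3:**
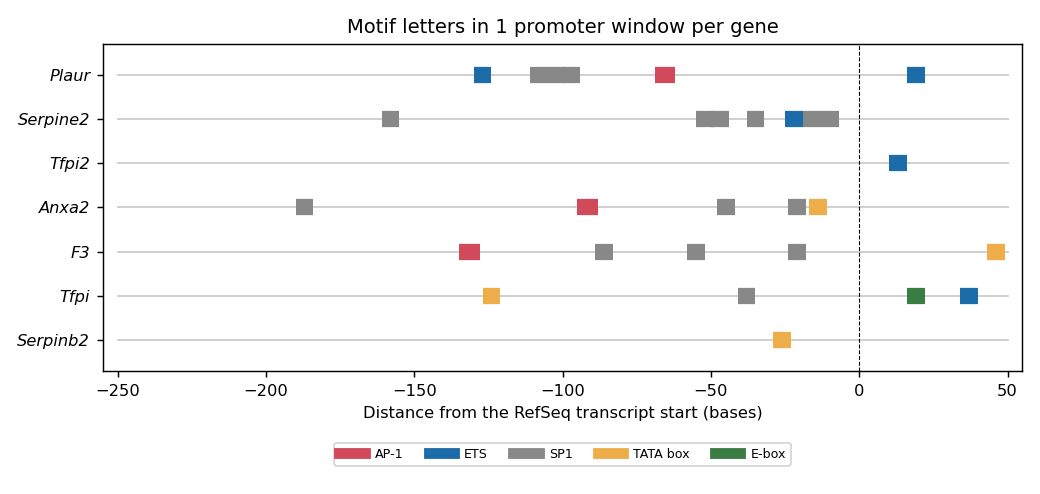
Position of motif letters (colored bars) along 1 promoter window per gene, in bases from the RefSeq transcript start (dashed line at 0), for the 7 genes with a window. AP-1 letters appear in the windows of Plaur, Anxa2 and F3, and none of the motifs lies before the start in that of Tfpi2.

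The 4 calls under the block depended on the fit and on single pairs. No member was called in the blocked fit without a filter on low values, without an intensity trend, without pair 2 or without pair 3 (5 of the 9 had an unadjusted p under 0.05 in each of these 4 fits, against 14.8%, 22.6%, 18.9% and 18.3% of all genes in the same order), whereas Plau, Plaur, Serpine2 and Serpinb2 were called without pair 1. The direction of Plau, Plaur, Plat, Serpine2, Tfpi2 and Anxa2 was upward under each of the 26 alternatives, among them all the scalings.

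The order of the genes by level was partly shared by the groups. Anxa2 was highest, Plau next and Serpinb2 lowest by mean in both groups, and Anxa2 and Plau were in that order in each of the 6 samples. In AdGFP they were followed by Tfpi, Plat and Serpine2, at means of 24.0, 17.4 and 15 FPKM. In AdCre the same 3 were at 21.2, 21.7 and 22.4 FPKM, with overlapping ranges, so no order among them can be given there. Plaur, F3 and Tfpi2 followed by mean in AdGFP with overlapping ranges, although in AdGFP 1 Plaur was above Serpine2 and Plat. In AdCre, Plaur and Tfpi2 also overlapped, at means of 15.8 and 13.6 FPKM, and F3, at 8.19 FPKM, overlapped with both Tfpi2 and Serpinb2. In AdCre 1, Plaur and Tfpi2 were above Plat, Serpine2 and Tfpi.

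Ratios within a sample put activators beside each other and beside their receptor or inhibitor, as a description without a test. Plau to Plat was 1.49, 2.25 and 1.87 in AdGFP replicates 1 to 3 and 1.83, 2.72 and 1.95 in AdCre, higher in each pair, by 0.30, 0.28 and 0.06 on the log2 scale. Plat to Serpine2 was 1.24, 1.0 and 1.24 in AdGFP and 1.07, 0.868 and 0.981 in AdCre, lower in each pair, by between 0.21 and 0.34 on the log2 scale. Plau to Plaur was 1.48 and 1.53 in the samples numbered 1 and between 4.15 and 5.5 in the other 4. On the side of coagulation, F3 to Tfpi was 0.426, 0.314 and 0.363 in AdGFP and 0.342, 0.336 and 0.482 in AdCre, with pair differences of -0.32, 0.10 and 0.41. Tfpi2 to Tfpi was 0.499, 0.233 and 0.215 in AdGFP and 1.17, 0.451 and 0.407 in AdCre. It was higher in each pair, by 1.22, 0.95 and 0.92 on the log2 scale. Its mean difference of 1.03 was 0.55 without AdCre replicate 1.

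**Figure D4:**
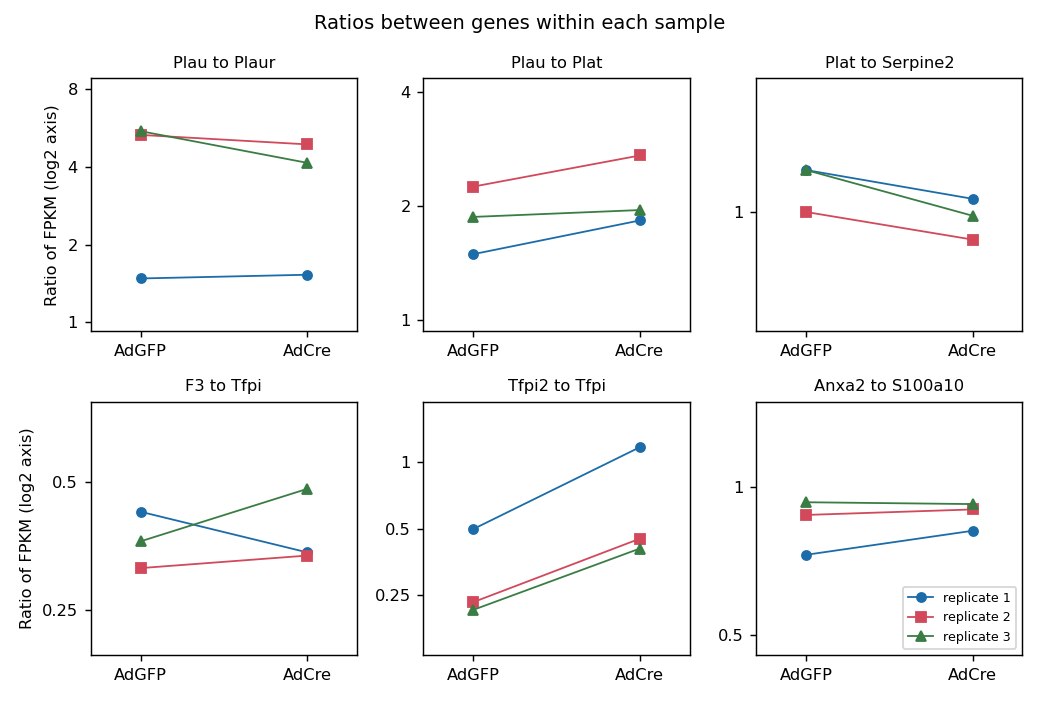
Ratio of the FPKM values of the named genes within each sample (vertical axes, log2 scale) for AdGFP and AdCre, with lines joining samples of the same replicate number. The lines for Plat to Serpine2 fall in all 3 pairs, and those for Tfpi2 to Tfpi rise in all 3 pairs.

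Other genes of both systems were read from lists. Of 26 further genes of the plasminogen system list 17 were tested, and 0 passed in limma without the block (5 at an unadjusted p under 0.05, against 10.2% of all genes, and 0 with voom). With the block, Itgb3 passed as higher (2.64% of all genes), and Lpl and Masp1 as lower (3.51%). Of the 10 blocked fits, Itgb3 passed in 5, and Lpl and Masp1 in 6 each. The median log2 fold change of the 17 was 0.09. Itgb3, the beta subunit of the vitronectin receptor, went from 6.21 ± 1.27 to 9.15 ± 0.665 FPKM (n = 3 each, log2 fold change 0.57, limma adjusted p 0.341, and 0.0459 with the block). Masp1, a serine protease of the lectin pathway of complement, went from 17.7 ± 1.95 to 10.8 ± 3.21 FPKM (-0.75, limma adjusted p 0.329, and 0.029 with the block). Lpl, lipoprotein lipase, went from 118 ± 18.1 to 79.6 ± 16.2 FPKM (-0.58, limma adjusted p 0.367, and 0.0198 with the block). Plg, plasminogen itself, had 1 read in AdCre 3 and 0 in the other 5 samples, and was below the level needed for testing.

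Of 29 further coagulation genes 13 were tested, and 0 passed in limma without the block (3 at an unadjusted p under 0.05, against 10.2% of all genes, and 0 with voom), while 2 passed as higher with it (2.64% of all genes). The median log2 fold change of the 13 was 0.24. Procr, the endothelial receptor for protein C, was at 13.1, 7.42 and 8.17 FPKM in AdGFP and at 19.1, 15.8 and 20.9 FPKM in AdCre. Its groups did not overlap, and the log2 difference was 0.99 (standard error 0.23, limma adjusted p 0.262, and 0.0306 with the block). Entpd1, an ectonucleotidase that removes the platelet agonist ADP, went from 3.06 ± 0.45 to 4.53 ± 0.393 FPKM (n = 3 each, log2 fold change 0.56, limma adjusted p 0.324, and 0.0488 with the block). Entpd1 passed in 4 of the 10 blocked fits and Procr in 6. The fibrinogen chain genes Fga, Fgb and Fgg were at 0 reads in all 6 samples. Factor VII (F7), the ligand of tissue factor, had between 0 and 21 reads and factor X (F10) between 0 and 26.

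**Figure D5:**
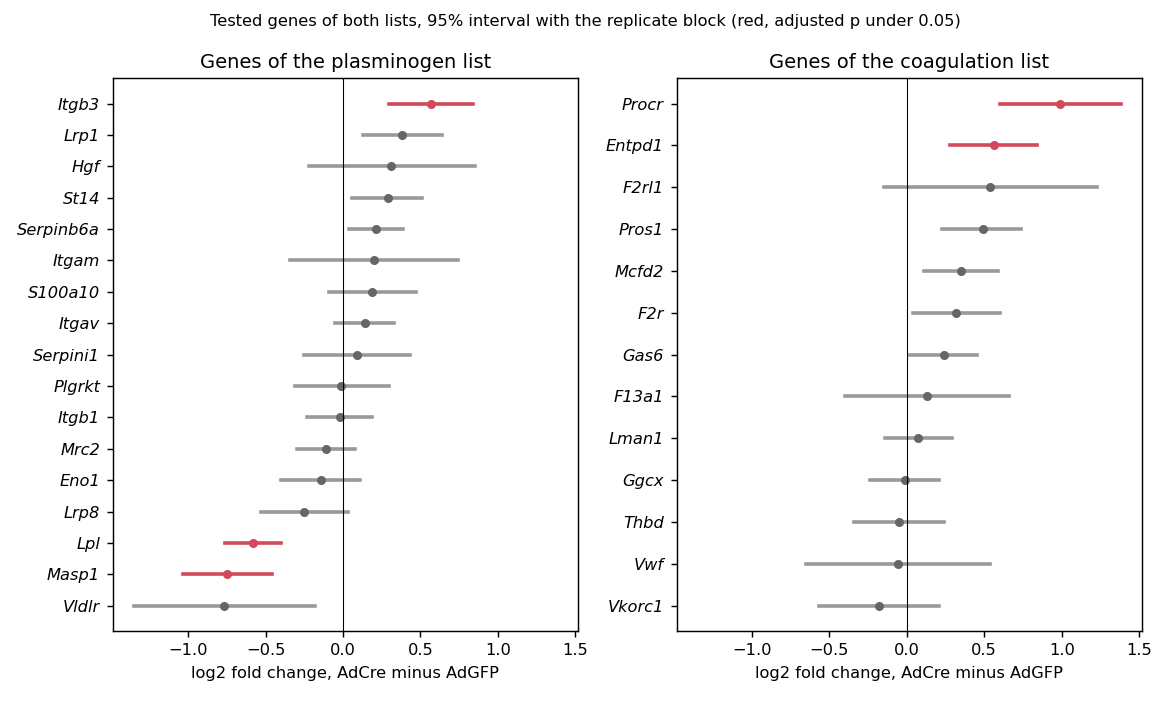
Log2 fold change (horizontal axes, AdCre minus AdGFP, of FPKM + 0.1) of the 17 tested genes of the plasminogen list and the 13 of the coagulation list outside the main 9, as points with 95% intervals from the fit with the replicate block. Red marks the 5 genes that passed in that fit, among them Procr and Itgb3 above 0 and Lpl and Masp1 below it.

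The cultures held more than 1 cell type. All 16 cardiomyocyte markers listed were expressed, and their summed level was between 7919 and 13794 FPKM in AdGFP and between 4697 and 7008 FPKM in AdCre, with 9 of 16 passing as lower under the block (3.51% of all genes). Without the block 0 of 16 passed in limma (7 at an unadjusted p under 0.05), and 0 also passed in each of the lists that follow. Endothelial markers were at a sum of 105 to 160 FPKM in AdGFP and 150 to 222 FPKM in AdCre, with 4 of 13 higher under the block (2.64% of all genes). Macrophage markers were at 53.3 to 290 and at 93.6 to 363 FPKM, with 2 of 11 tested higher. Fibroblast markers were at 2725 to 4804 and at 2441 to 3508 FPKM, with 1 of 13 tested higher and 3 lower. Mesothelial and epicardial markers were at 302 to 523 and at 417 to 551 FPKM, with 3 of 12 tested higher and 3 lower. Mural cell markers were at 1202 to 2006 and 1365 to 1668 FPKM, with 0 of 11 tested called under the block as well (0 at an unadjusted p under 0.05 without it). Platelet markers summed to 25.3 FPKM at most, with Gp1bb and Gp6 listed at 0 (92.86% of the exon bases of Gp1bb lie in other genes on the same strand), and red blood cell markers to 2.3 FPKM at most, with Hba-a2 and Hbb-bt at 0. Interferon response genes were at 44.3 to 90.9 and at 77.5 to 340 FPKM, with 12 of 15 tested higher under the block (2.64% of all genes) and 0 passing without it (8 at an unadjusted p under 0.05). The part of these cell types and of the interferon response in the levels of the 9 genes was not tested.

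Across the 6 samples, the 9 genes did not share a single pattern. Likeness was measured as the root mean square difference between log2 values centered on the mean of each gene, which is 0 for identical patterns. Plau and Serpine2 were each the closest member to the other (0.143), with 76 protein-coding genes closer to Plau. Plaur and Tfpi2 were likewise each the closest member to the other (0.291), both being high in replicate 1. Among all protein-coding genes compared, Tfpi2 ranked only 41 in closeness to Plaur, and Plaur 39 to Tfpi2. The genes nearest to Plau were Fmnl2 (0.0422), Sgpp1 (0.0684) and Ebf1 (0.0792), and those nearest to Plaur were Ucn2 (0.0837), H2-DMa (0.134) and Rassf6 (0.178). Serpine2 was followed most closely by Fam20a (0.0314), Fam83h (0.0469) and Aldh1a2 (0.0593), the last of them in the mesothelial and epicardial list. Tfpi2 lay nearest to Hecw1 (0.114), Sema7a (0.151) and Clic3 (0.176), and Plat nearest to Col27a1 (0.0328), Pigf (0.0439) and Msantd2 (0.0509). Closest to Serpinb2 were Abca8a (0.183), the chemokine receptor gene Ccr1 (0.192) and Pf4 (0.262), which codes for a platelet chemokine. F3 was nearest to Zfp874a (0.0484), Sec16b (0.0804) and Gemin8 (0.0966). For Tfpi the nearest were CT030661.1 (0.0388), Sos1 (0.0533) and Zfp605 (0.0559), and for Anxa2 they were Wdr4 (0.0384), Trmt6 (0.0474) and Lmna (0.0584).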

How the data were processed

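Per the labels, poly-T beads selected the messenger RNA, and random hexamers primed its copying. The deposited table holds FPKM values that the authors had computed, 1 column per sample. The submitters' processing notes name fastp, STAR 2.5, HTSeq 0.6.1 and build mm10. Which annotation was counted, and whether by strand, is not given in the sources used here. Symbols, exon lengths and coordinates came from GENCODE M21 (GRCm38), which holds 54495 of the 54532 gene IDs.

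FPKM times exon length, divided by 1 step per sample, gave whole reads (within 0.02) in all samples for 98.3% of 16035 genes with at most 100 reads. The denominators behind FPKM were between 0.9308 and 1.0254 times the summed reads, which shows a rescaling of library sizes by the authors. Counting error is smallest for genes with many reads.

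The test ran in limma 3.58.1 (under R 4.3.3) on log2(FPKM + 0.1) of 13794 genes whose mean reached 0.5 FPKM or more, as a group contrast followed by eBayes with an intensity trend. The fold changes understate those of low genes. Biological replicates carry the numbers 1 to 3 in each group's labels. Deviations from the group means correlated across genes at 0.568, 0.268 and 0.506 between same-numbered samples and at 0.036 at most between others, which was taken as pairing by number, with no other source for it than these values. The fit with the replicate block is therefore given beside each result whose call it changes. Within each group no library repeated another, since chi-square per degree of freedom between replicates ran from 35.78 to 113.66. The labels do not say how wells and litters relate to replicates, so p-values measure the spread between these samples.

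The genes and lists were chosen with earlier results of these data known. Named were all 9 genes, genes of the plasminogen and coagulation lists called in either fit, S100a10, Rit1 and, for each of the 9, the 3 protein-coding genes of most similar pattern. A further listed gene, with its ratios, is not reported here. Plg, F7, F10, fibrinogen genes and markers at 0 were named after their values were seen. Alternatives were other pseudocounts, filters and scalings, no trend, voom on recovered reads, the block, and leaving out samples or pairs. The test was checked on simulated data with 200 genes changed 2-fold. Without pair effects, the fit called 75.5% of them without the block and 73.5% with it. With pair effects of SD 0.3 by replicate number, it called 0% without the block and 80% with it. With 0 genes changed, the blocked fit called 6 genes without pair effects and 2 with them. Those pair effects were built in, so the simulation cannot tell whether the real samples are paired. The share of 50-base transcript words that other genes also hold was computed for 16 genes (the 9, the called genes of the pathway lists, S100a10 and Rit1) and was at most 1.14% apart from Serpinb2. Tables were made with Python 3.11.15, numpy 2.4.6, pandas 2.3.3 and matplotlib 3.10.9.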

Additional observations from a re-analysis of the deposited data

How the results depend on the processing

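Of 234 values of the 9 genes under 26 alternatives, 9 changed sign, all of Serpinb2, F3 or Tfpi. Serpinb2, which ran from -0.27 to 1.17 as single samples were left out, was at -0.22 without AdGFP replicate 1, -0.07 and -0.27 without AdCre replicates 2 and 3, and -0.01 in the replicate block without pair 3. F3 was at 0.07 without AdGFP replicate 3, 0.08 without AdCre replicate 1 and 0.07 in the block without pair 1. Tfpi, between -0.28 and 0.01 in such fits, was at 0.01 without AdGFP replicate 3 and in the block without pair 3. Outside the 9, S100a10, between -0.02 and 0.54, was at -0.02 without AdGFP replicate 3 and -0.00 without AdCre replicate 1. The cause was not tested.

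Over all genes, 1 gene was called without the block, 3 with a pseudocount of 1, 4 without an intensity trend, 0 without a filter (2168 at an unadjusted p under 0.05), 0 with voom (1423) and between 0 and 2 when a sample was left out. The replicate block called 848 genes over all, 4 of the 9, 3 of the plasminogen list and 2 of the coagulation list. In the same order these counts were 784, 4, 3 and 1 with the block and a pseudocount of 1; 875, 5, 3 and 3 with the block after rescaling to TPM, and the same with the authors' factors taken out, an alternative added after the data were seen; and 1547, 5, 5 and 3 with the block and voom. The block without a filter called 17 genes over all and 0 of each list, and without a trend 0 (3122 at an unadjusted p under 0.05). With 1 pair left out, blocked counts were 811, 152 and 1 over all genes without pairs 1, 2 and 3, and ran from 0 to 4 of the 9, from 0 to 2 of the plasminogen list and from 0 to 2 of the coagulation list. Of the 848 blocked calls 364 were higher and 484 lower, against 538 and 337 after rescaling to TPM and 479 and 396 with the authors' factors taken out. With all 3 pairs and otherwise unaltered settings, the block changed no call of F3, Tfpi, Serpinb2, Anxa2, Plat, S100a10 or Rit1. Plat did pass under the block with TPM, voom or the authors' factors taken out (adjusted p 0.0401, 0.0364 and 0.0467, against 0.583, 0.588 and 0.52 without the block), and Serpinb2 in the block without pair 1 (0.0392). Leaving out 1 of 3 samples in a group cannot move a ratio difference by as much as the spread between replicates. Staying within that spread therefore says nothing about stability, and only the ranges are given. Plau to Plaur ran from -0.78 to 0.36, F3 to Tfpi from -0.11 to 0.18 and Anxa2 to S100a10 from -0.04 to 0.14, each changing sign. Tfpi2 to Tfpi ran from 0.55 to 1.42, Plat to Serpine2 from -0.36 to -0.18 and Plau to Plat from 0.04 (without AdCre replicate 2) to 0.36 (without AdGFP replicate 2). Depth limits Serpinb2 most, at 76 to 524 reads.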
